A study of Mus musculus with 65 samples.

Results

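The medulla of 28-week-old Atxn1[82Q] knockin mice was compared between animals given an antisense oligonucleotide (ASO) against Atxn1 and animals given vehicle. The comparison takes 15 of the 65 libraries of the series, 7 from the ASO group and 8 from the vehicle group, picked by what their labels give for tissue, age, genotype and treatment. Both groups carry the Atxn1[82Q] genotype on the C57BL/6J strain. Batch 1 holds 4 ASO and 4 vehicle libraries (replicates 1 to 4) and batch 2 holds 3 ASO and 4 vehicle libraries (replicates 5 and up), as the labels give them. A group of 8 libraries from wild type C57BL/6J mice given vehicle, of the same tissue and age and in the same batches, entered the model to share its estimate of the spread, and its levels are given for orientation. The sequence, dose, route and timing of the ASO are not given in the sources used here, and neither is the sex of the mice. The columns of the deposited table end in a number that differs for each of the 23 medulla libraries, and that 12 of them share with a pons library of the same group and age. What the number stands for is not stated, so the p-values measure the spread between libraries, whether or not each came from a separate mouse.

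Ataxin-1, the product of Atxn1, is a nuclear protein that binds the transcriptional repressor Capicua (Cic). An expanded CAG repeat in Atxn1 gives the protein a long polyglutamine tract and causes spinocerebellar ataxia type 1 (SCA1), in which Purkinje cells of the cerebellum and neurons of the brainstem degenerate. The medulla, the lowest part of the brainstem, holds motor neurons for the throat and tongue and the neurons that drive breathing. An ASO pairs with its target RNA, and gapmer designs recruit RNase H, which cuts the RNA. Because whole tissue was measured, fewer cells of a type and less RNA per cell cannot be told apart for any gene below.

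Counts per library, in units of 1e6, ranged from 62.64 to 105 in these 15 and from 49.17 to 119.1 over the series. Markers of brainstem neurons were present in every one of them. Chat, the acetylcholine synthesis gene of motor neurons, lay between 11.6 and 32.1 CPM (counts scaled to a library of 1e6, with TMM factors), against 0 to 1.05 CPM in the cerebellum libraries. Slc6a5, the transporter gene of glycinergic neurons, lay between 222 and 532 CPM, against 21.5 to 41.8 CPM in cerebellum. In pons libraries of 28 weeks Chat held 6.79 to 21.9 CPM and Slc6a5 51.2 to 274 CPM, so neither gene separates medulla from pons. The Hox genes, which mark position along the hindbrain, set some libraries apart: their mean log2 CPM was -0.15 in ASO 6, -0.40 in ASO 7 and 0.018 in Vehicle 8, all of batch 2, against 1.75 in ASO 3 and 2.77 to 4.06 in the other 11. Summed over the Hox genes, CPM ranged from 33.4 to 438 in medulla and from 16.1 to 64.5 in pons at 28 weeks, so the ranges overlapped. The mean log2 CPM of cerebellar granule and Purkinje cell genes was highest in ASO 6 (6.45), Vehicle 2 (6.25), ASO 7 (5.73) and Vehicle 1 (5.33), and lay between 3.60 and 4.76 in the other 11. Counts of changed genes are given below with and without the libraries low in Hox genes (ASO 6, ASO 7, Vehicle 8 and wild type 5), and with and without the library labelled ASO 2, for the reason given next.

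Atxn1 (ENSMUSG00000046876, GRCm38 chromosome 13, 45549755 to 45965008, minus strand) was lower in 6 of the 7 ASO libraries than in every vehicle library. The 7 ASO libraries held 24.8, 49.3, 30.9, 26.5, 32.9, 30.4 and 33.5 CPM in the order of their replicate numbers. The 8 vehicle libraries held 47.1, 40.0, 42.9, 40.6, 47.7, 43.7, 43.0 and 47.4 CPM. The library labelled ASO 2, at 49.3 CPM, therefore stood above all vehicle libraries and went against its label, while without it the groups did not overlap. Wild type libraries lay between 30.3 and 38.6 CPM. Atxn1 fell 1.34-fold with the ASO (log2 difference -0.43 ± 0.10 SE; edgeR quasi-likelihood adjusted p = 0.027), and an exact two-sided permutation test within batches gave p = 0.0041 over 2450 arrangements. The edgeR call ended without any 1 of ASO 1, ASO 3 to 7, Vehicle 1 and Vehicle 5 (adjusted p up to 0.082). In batch 2 the exact p was 0.029, the smallest that 3 against 4 libraries can give, and in batch 1, which holds the library labelled ASO 2, it was 0.14. Without the libraries low in Hox genes the log2 difference was -0.38 (edgeR adjusted p = 0.20). Without the library labelled ASO 2 it was -0.57, which is given with no test because that library was set aside for this same value. The pons library labelled ASO 2 at 28 weeks also held more Atxn1 (52.43 CPM) than the other 3 pons ASO libraries (26.67, 36.79 and 30.12 CPM), but its column ends in the same number as that of the medulla library, so it is no independent check.

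The partners of ataxin-1 were not called. Atxn1l, the paralogue that also binds Capicua, held 44.0 ± 1.98 CPM with the ASO (SD, n = 7) and 46.1 ± 2.96 CPM with vehicle (n = 8), and Cic held 137 ± 9.70 and 134 ± 6.96 CPM. Of 16 tested genes of ataxin-1 and its partners and regulators, Atxn1 alone was called, and the log2 differences of the other 15 lay between -0.07 and 0.15.

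**Figure D1:**
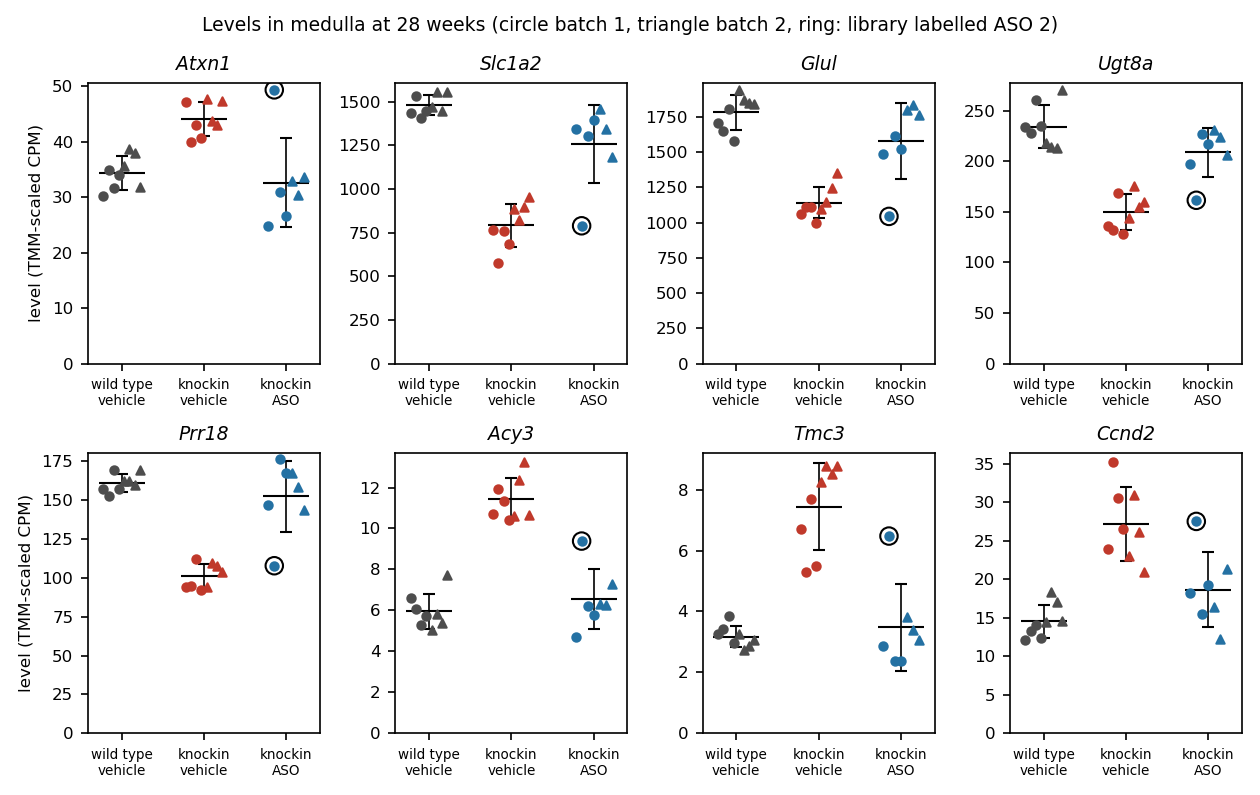
Levels of 8 genes (y axis, TMM-scaled CPM, from 0) in each library of medulla at 28 weeks by group (x axis), with circles for batch 1, triangles for batch 2, and bars for the group mean and SD. The ringed library labelled ASO 2 lies among the vehicle libraries for Slc1a2, Glul, Ugt8a, Tmc3 and Ccnd2, at 49.3 CPM above them for Atxn1, and between the groups for Acy3.

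Across the transcriptome, 346 of 20465 tested genes were called at an adjusted p under 0.05 (1.69%), 267 higher with the ASO (1.3%) and 79 lower (0.386%). Most changes were small: the median fold of the called genes was 1.27, and 280 of the 346 changed less than 1.5-fold. The median log2 difference over all tested genes was -0.0069. At an unadjusted p under 0.05, 1389 of the 20465 were higher and 1084 lower, the background for list counts at that p below. Groups of 7 and 8 libraries without any overlap were seen for 29 of the called genes (0.181% of all tested genes had none), and for 180 when the library labelled ASO 2 was set aside (1.25% of all). DESeq2 called 618 (3.02%), 450 higher and 168 lower. The edgeR count was 611 without that library (2.96%) and 138 without the libraries low in Hox genes (0.666%), and 125 of the 138 were among the 346. Leaving out any other 1 library gave between 191 calls (without ASO 6) and 517 (without Vehicle 2), with 200 to 227 without any 1 of ASO 1, ASO 3, ASO 4, ASO 5 and Vehicle 5. Of 62 called genes named in the text, 37 kept their call without any 1 of the 23 libraries, and the other 25 are marked where they appear.

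Genes of astrocytes rose together. Of 20 astrocyte markers, 15 rose (75%, against 1.3% of all tested genes), 0 fell and 5 did not pass. Their median log2 difference was 0.38. Slc1a2, the gene of the main glial glutamate transporter (chromosome 2, 102658659 to 102790784), ranged from 577 to 955 CPM in vehicle libraries (median 793) and from 789 to 1460 CPM in ASO libraries (median 1342), where the lowest was the library labelled ASO 2. The other 6 ASO libraries, at 1181 CPM and above, lay above every vehicle library. Slc1a2 rose 1.61-fold (log2 difference 0.69 ± 0.093 SE, adjusted p = 0.00045), and wild type libraries held 1482 ± 58.7 CPM (SD, n = 8). Glul, glutamine synthetase, which turns glutamate taken up by astrocytes into glutamine, rose 1.39-fold, from a median of 1111 CPM (range 999 to 1352) to 1612 CPM (range 1044 to 1833; adjusted p = 0.00064). As for Slc1a2, the Glul groups overlapped through the library labelled ASO 2 alone.

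Other astrocyte genes that rose have varied roles. Kcnj10, the inward rectifier potassium channel gene of glia, rose 1.39-fold, from 342 to 504 CPM in vehicle libraries to 493.3 to 719 CPM in ASO libraries (adjusted p = 0.0024). Ntsr2, a neurotensin receptor gene of astrocytes, rose 1.36-fold, with 98.1 CPM in the library labelled ASO 2, 126 to 138 CPM in the other ASO libraries and 86.5 to 104 CPM in vehicle libraries (adjusted p = 0.00037). Etnppl, a phospholyase that breaks down phosphoethanolamine, rose 1.68-fold (median 34.1 CPM with vehicle and 58.1 CPM with the ASO, adjusted p = 0.046). Chosen after their values were seen, Gja1, the connexin gene of astrocyte gap junctions, rose 1.395-fold, Aqp4, the water channel gene, 1.32-fold, and Agt, angiotensinogen, 1.55-fold. The calls of Etnppl, Aqp4 and Agt ended without any 1 of 19, 9 and 5 libraries (adjusted p up to 0.12, 0.087 and 0.067). Outside the list, 2 genes that astrocytes express strongly had some of the smallest p-values: Atp1b2, a sodium pump subunit gene, rose 1.28-fold (731 ± 71.2 to 929 ± 111 CPM, SD, adjusted p = 0.00036), and Ttyh1, a chloride channel family gene, rose 1.39-fold (315 ± 26.6 to 435 ± 67.1 CPM, adjusted p = 0.00064).

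The 5 astrocyte markers that did not pass included broadly used ones. Aldh1l1, a folate enzyme gene, had a log2 difference of 0.07 (adjusted p = 0.81), Slc1a3, the other glial glutamate transporter gene, at 0.13 (0.66), and Gpc5, a glypican gene, at -0.20 (0.11). In batch 1 alone Aldh1l1 and Slc1a3 were at -0.08 and -0.10, and Slc1a3 was at -0.03 without the libraries low in Hox genes. Gpc5 fell by 0.23 when the library labelled ASO 2 or Vehicle 2 was left out (adjusted p = 0.042 and 0.029). Of 16 genes of reactive astrocytes, 0 were called by edgeR, with 3 higher at an unadjusted p under 0.05 and 1 called by DESeq2. Gfap, the intermediate filament gene of astrocytes, ranged from 326 to 762 CPM with vehicle and from 422 to 1055 CPM with the ASO (log2 difference 0.56 ± 0.22 SE, adjusted p = 0.26). The median over the astrocyte markers was 0.39 in batch 1 alone, 0.40 in batch 2 alone and 0.39 without the libraries low in Hox genes, where 11 of the 20 rose (0.55% of all genes rose there). In batch 1 alone no member passed, and 15 were higher at an unadjusted p under 0.05, against 1090 of all 20511 genes.

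Some genes of myelin rose. Of 23 genes of mature oligodendrocytes and myelin, 8 rose (34.8%, against 1.3% of all tested genes), 0 fell and 15 did not pass. Their median was 0.14, and 6 rose without the libraries low in Hox genes (0.55% of all genes rose there). Ugt8a, an enzyme gene of galactolipid synthesis for myelin (chromosome 3, 125865271 to 125938619), ranged from 128 to 176 CPM with vehicle (median 149.8) and from 161 to 231 CPM with the ASO (median 217), a 1.3995-fold rise (adjusted p = 0.0012). Apart from the library labelled ASO 2 at 161 CPM, all ASO libraries, at 197 CPM and above, exceeded the highest vehicle library. Fa2h, an enzyme gene of hydroxylated lipid synthesis, rose 1.31-fold (adjusted p = 0.0034), and Tspan2, a tetraspanin gene of oligodendrocytes, rose 1.37-fold (adjusted p = 0.0040). Prr18, a proline-rich protein gene, had the smallest p-value of all genes: vehicle libraries held 92.4 to 112 CPM and ASO libraries 143.7 to 176 CPM, apart from the library labelled ASO 2 at 108 CPM (1.51-fold, log2 difference 0.60 ± 0.071 SE, adjusted p = 0.00022).

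Other myelin genes did not pass. Mbp, myelin basic protein, had a log2 difference of 0.14 (adjusted p = 0.37), Mog at 0.05 (0.84), Mag at 0.08 (0.62) and Cnp, a myelin phosphodiesterase gene, at 0.02 (0.94). Of 15 genes of oligodendrocyte precursors, 0 were called by edgeR or DESeq2, with 2 higher and 1 lower at an unadjusted p under 0.05. Zfp488, a transcription factor gene of the oligodendrocyte lineage, fell 1.41-fold (9.92 ± 1.25 to 6.99 ± 1.27 CPM, adjusted p = 0.0063). Apod, an apolipoprotein gene of myelinating and perivascular cells, fell 1.31-fold, from 801 ± 135 to 601 ± 88.1 CPM (adjusted p = 0.018). Of 24 cholesterol synthesis genes, 0 were called by edgeR and 3 by DESeq2, all higher, with 4 higher at an unadjusted p under 0.05 and a median of 0.088. Cyp51, a sterol demethylase gene, was closest at 0.23 (edgeR adjusted p = 0.084), and rose without the library labelled ASO 2 (0.27, adjusted p = 0.0061).

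Several genes of activated microglia were high in some ASO libraries. Of 20 genes of activated microglia and macrophages, 3 rose (15%, against 1.3% of all tested genes), 0 fell and 17 did not pass. Their median log2 difference was 0.49, and 14 were higher at an unadjusted p under 0.05, against 1389 of all 20465 genes. The count of 3 was 7 by DESeq2, which called 450 of all genes higher. It was 0 without ASO 6 or with the ASO and vehicle groups fitted alone. Itgax, an integrin gene of activated microglia, ranged from 0.208 to 0.819 CPM with vehicle. ASO libraries 1 to 7 held 4.22, 0.469, 1.70, 4.23, 0.578, 2.69 and 0.930 CPM, so 5 lay above every vehicle library, while the library labelled ASO 2 and ASO 5 lay within their range (3.70-fold, log2 difference 1.89 ± 0.43 SE, adjusted p = 0.023). Cst7, a cystatin gene, held 2.61, 0.577, 0.818, 2.24, 0.413, 1.38 and 0.382 CPM in the same order and 0.138 to 0.444 CPM with vehicle (3.35-fold, adjusted p = 0.014). Its groups overlapped through ASO 5 and ASO 7. Cd68, a lysosomal protein gene of phagocytes, rose 1.54-fold, with 5.60 to 13.2 CPM against 4.65 to 6.62 CPM (adjusted p = 0.018). Without ASO 6 the calls of Cst7, Cd68 and Itgax ended (adjusted p = 0.057, 0.058 and 0.084), and that of Itgax also ended without any 1 of ASO 1, ASO 4, Vehicle 1 and Vehicle 4. In wild type, Itgax held 0.526 ± 0.168 CPM and Cst7 0.254 ± 0.109 CPM (SD, n = 8).

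**Figure D2:**
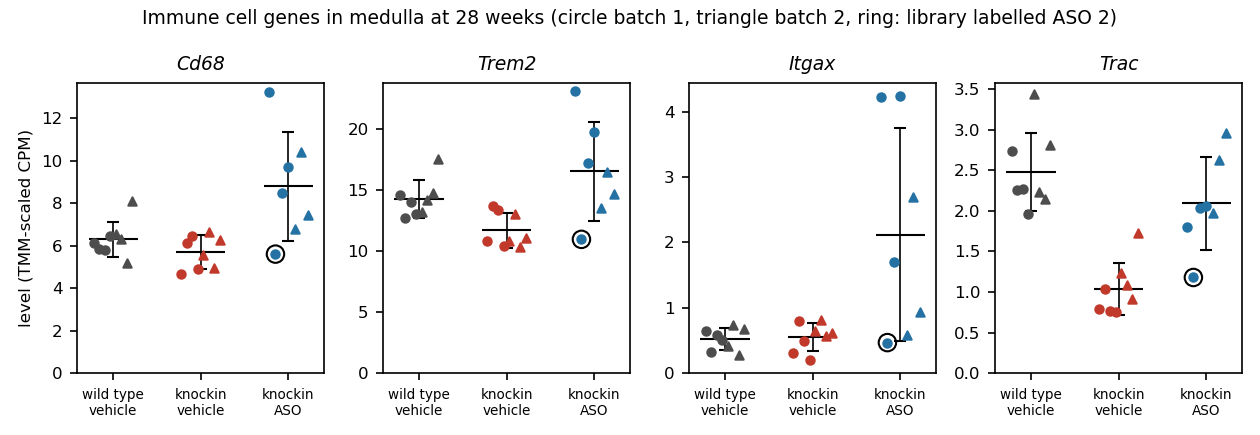
Levels of 4 immune cell genes (y axis, TMM-scaled CPM, from 0) in each library by group (x axis), with circles for batch 1, triangles for batch 2, a ring for the library labelled ASO 2, and bars for the mean and SD. Itgax spreads from 0.469 to 4.23 CPM over the ASO libraries, against 0.208 to 0.819 CPM over the vehicle libraries.

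Of 20 tested genes of homeostatic microglia, 2 rose (10%, against 1.3% of all tested genes) and 18 did not pass, with a median of 0.21. Trem2, a lipid receptor gene, rose 1.41-fold (11.0 to 23.1 CPM against 10.3 to 13.7 CPM, adjusted p = 0.027). Fcrls, an Fc receptor-like gene, rose 1.62-fold (adjusted p = 0.019). The defining markers Tmem119 and P2ry12 were at 0.08 (adjusted p = 0.77) and 0.05 (adjusted p = 0.90). Among 10 genes of complement and Fc receptors, Fcgr2b, an inhibitory Fc receptor gene, rose 1.56-fold (adjusted p = 0.026). C3, the central complement component, was at 1.01 (adjusted p = 0.064). Ctss, a cathepsin gene, was the only called gene of 19 lysosomal genes (5.26%), at 1.27-fold higher (adjusted p = 0.029). Tlr7, an endosomal sensor of single-stranded RNA, was the only called gene of 15 of nucleic acid sensing and RNase H (6.67%). It was 1.43-fold higher (adjusted p = 0.017), and 1.3% of all tested genes were called higher. Of 17 chemokine and receptor genes, 0 were called by edgeR, with 4 higher at an unadjusted p under 0.05 and 2 called by DESeq2. Ccl3 there was at 1.401 (edgeR adjusted p = 0.062). Without ASO 6 the calls of Fcrls and Tlr7 ended (adjusted p = 0.058 and 0.054), and those of Trem2, Fcgr2b and Ctss ended without any 1 of 8, 6 and 9 libraries (adjusted p up to 0.071, 0.066 and 0.071). Without the library labelled ASO 2, Ccl3 (1.56, adjusted p = 0.0097) and C3 (1.10, adjusted p = 0.027) rose, as did Ccl3 without ASO 7 or Vehicle 8 (adjusted p = 0.031 and 0.042) and C3 without Vehicle 6 (adjusted p = 0.033). Without the libraries low in Hox genes, 0 genes of activated or homeostatic microglia passed while the medians were 0.53 and 0.22. Without the library labelled ASO 2, 7 and 5 rose (2.11% of all genes did).

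Lymphocyte genes gave 2 calls, both higher, among the 18 of 26 that passed the filter on low counts (11.1%, against 1.3% of all tested genes). Trac, the constant region gene of the T cell receptor alpha chain, rose 2.06-fold, from 0.750 to 1.72 CPM (median 0.977) to 1.18 to 2.95 CPM (median 2.03; adjusted p = 0.00084). The groups overlapped through the library labelled ASO 2. Wild type libraries held 1.96 to 3.44 CPM. Ighm, the constant region gene of immunoglobulin M, rose 1.57-fold (33.0 ± 8.02 to 51.9 ± 6.31 CPM, adjusted p = 0.025), a call that ended without any 1 of 5 libraries (adjusted p up to 0.060). Defining markers of T cells were near 0: Cd3e lay between 0 and 0.22 CPM in the 15 libraries, with 55 counts over all ASO and 58 over all vehicle libraries, and Cd8a between 0.0704 and 0.346 CPM. The mean log2 CPM of the list ranged from -1.51 to -0.90 in ASO and from -1.59 to -1.18 in vehicle libraries. Ly9, a receptor gene of immune cells and 1 of the 10 genes of smallest p, rose 2.58-fold (0.537 to 1.08 CPM with vehicle, 1.13 to 2.70 CPM with the ASO, adjusted p = 0.00045), with no overlap between the groups. Wild type libraries held 0.756 ± 0.201 CPM of Ly9.

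Interferon response genes gave no call. Of 30 tested, 0 passed by edgeR or DESeq2, with 0 higher and 4 lower at an unadjusted p under 0.05, and the median was -0.046. Ddx58, a sensor of viral RNA, and Xaf1, an interferon-induced gene, were closest at -0.20 and -0.19 (both adjusted p = 0.26), and without the library labelled ASO 2 Ddx58 fell by 0.27 (adjusted p = 0.038). Of 19 genes of antigen presentation, 0 passed by edgeR or DESeq2, with 2 lower at an unadjusted p under 0.05 and a median of -0.10. No member was called among 30 cytosolic ribosomal protein genes (0 higher and 2 lower at an unadjusted p under 0.05), 30 nuclear genes of oxidative phosphorylation (0 and 0), 25 proteasome genes (0 and 0) or 19 heat shock chaperone genes (0 and 1). DESeq2 called 0 in each of these 4 lists.

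**Figure D3:**
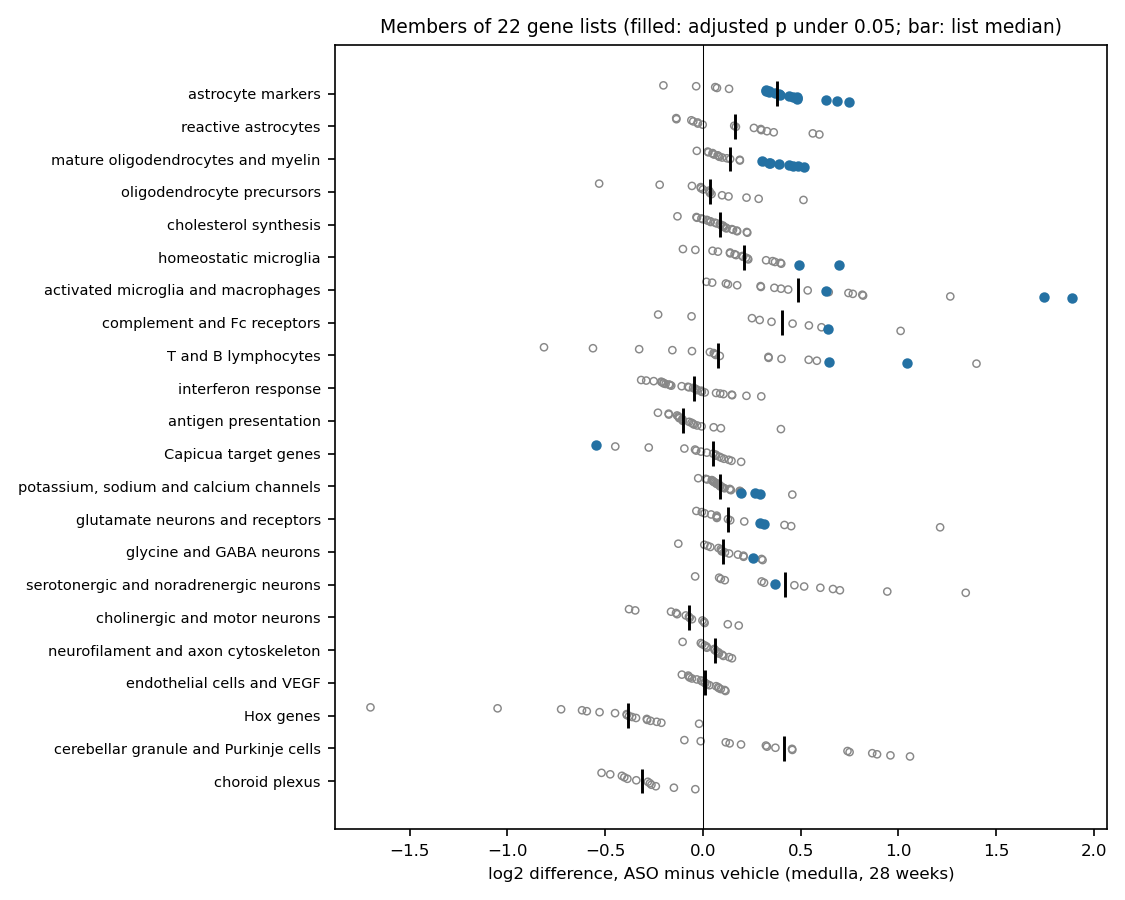
Log2 difference, ASO minus vehicle (x axis), of each tested member of 22 gene lists (y axis), with filled points for members at an adjusted p under 0.05 and a bar at the list median. Astrocyte markers hold 15 filled points around a median of 0.38, interferon response genes none around -0.046, and the Hox and cerebellar lists spread widely with none.

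In the lists of neuronal genes, the called members named here rose between 1.15-fold and 1.29-fold, and some of them are also expressed by glia. Of 27 potassium, sodium and calcium channel genes, 3 rose (11.1%, against 1.3% of all tested genes) and 24 did not pass, with a median of 0.088. Kcnn2, a calcium-activated potassium channel gene, rose 1.22-fold (26.6 to 32.0 CPM with vehicle, 32.2 to 39.9 CPM with the ASO, no overlap, adjusted p = 0.0011), Kcnc1, a fast potassium channel gene, 1.20-fold (adjusted p = 0.014), and Hcn2, a pacemaker channel gene, 1.15-fold (adjusted p = 0.045). Slc6a9, a glycine transporter gene mainly of glia that the list of glycine and GABA neurons holds, rose 1.19-fold (adjusted p = 0.0067). The glutamate receptor genes Grm3, which astrocytes also express, and Grm4 rose 1.22-fold and 1.24-fold (adjusted p = 0.041 and 0.030). They were the 2 called of 15 genes of glutamate neurons and receptors (13.3%, against 1.3% of all tested genes). Cerebellar genes were also high in ASO 6 and ASO 7. Without the libraries low in Hox genes, these among them, Grm4, a gene of cerebellar granule cells, was at 0.21 (adjusted p = 0.19). The serotonin receptor gene Htr1a rose 1.29-fold (adjusted p = 0.046) and the activity-regulated gene Arc 1.25-fold (adjusted p = 0.043). Larger differences in the same lists were not called. Of 14 genes of serotonergic and noradrenergic neurons 13 were positive, with a median of 0.42 and 1 call, Htr1a. Slc6a4, the serotonin transporter gene, was at 1.34 ± 0.50 SE (adjusted p = 0.24), Tph2, the serotonin synthesis gene of neurons, at 0.94 ± 0.47 SE (0.44), and Slc17a8, a vesicular glutamate transporter gene, at 1.21 ± 0.50 SE (0.31). Without the libraries low in Hox genes they were at 0.40, 0.12 and 0.32, and the list median was 0.061. The calls of Hcn2, Grm3, Grm4, Htr1a and Arc ended without any 1 of 16, 10, 7, 17 and 13 libraries (adjusted p up to 0.098, 0.11, 0.075, 0.11 and 0.10). Of 14 genes of cholinergic and motor neurons, 0 passed by edgeR or DESeq2, and 0 had an unadjusted p under 0.05 in either direction. Of 15 neurofilament and axon genes, 0 passed by either tool and 2 were higher at an unadjusted p under 0.05.

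Among the genes that fell was 1 of 17 tested targets of Capicua (5.88%, against 0.386% of all tested genes). This target was Ccnd2, a cyclin gene of cell cycle entry. It held 20.9 to 35.3 CPM with vehicle (median 26.3), 12.2 to 27.5 CPM with the ASO (median 18.2) and 12.1 to 18.4 CPM in wild type, and fell 1.46-fold (log2 difference -0.55 ± 0.14 SE, adjusted p = 0.049). The call of Ccnd2 ended without any 1 of 20 of the 23 libraries (adjusted p up to 0.12). The other 16 targets, among them Etv4 at -0.28 (adjusted p = 0.27) and Etv5 at -0.03 (0.87), transcription factor genes of the PEA3 family, were not called, and the list median was 0.052. For Etv4 the library labelled ASO 2 stood at 23.76 CPM against 12.65 to 15.25 CPM in the other ASO libraries and 17.1 to 20.9 CPM with vehicle, so that it lay above all vehicle libraries and the other 6 below them. Without it Etv4 fell by 0.40 on the log2 scale, which is given with no test because that library stood apart for this same gene. Tmc3, a transmembrane channel-like gene, fell 2.12-fold: vehicle libraries held 5.30 to 8.79 CPM, the library labelled ASO 2 held 6.48 CPM and the other ASO libraries 2.36 to 3.82 CPM (adjusted p = 0.0014). Acy3, an aminoacylase gene (chromosome 19, 3986570 to 3990007), fell 1.73-fold, from 10.4 to 13.3 CPM to 4.71 to 9.39 CPM, with no overlap and the library labelled ASO 2 as the highest ASO library (adjusted p = 0.00062). Wild type libraries held 5.04 to 7.73 CPM of Acy3.

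Further falls were of modest size. Chdh, choline dehydrogenase, which oxidises choline towards betaine, held 31.1 ± 3.12 CPM with vehicle, 18.7 ± 4.67 CPM with the ASO and 15.5 ± 2.41 CPM in wild type (SD), a 1.65-fold fall (adjusted p = 0.0013). Tgif2, a homeodomain repressor gene of TGF-beta signalling, fell 1.65-fold (2.85 to 4.08 CPM against 1.66 to 2.68 CPM, adjusted p = 0.0035). Nfe2l3, a transcription factor gene, fell 1.396-fold (14.6 to 21.97 CPM against 10.4 to 14.5 CPM, adjusted p = 0.0012), and Cldn14, a tight junction claudin gene, 1.41-fold (adjusted p = 0.0058). The groups of these 2 genes and of Tgif2 did not overlap. Lad1, Tmc6, Col9a2 and Rnf43 fell between 1.32-fold and 1.44-fold. Spag6, a gene of motile cilia, fell 2.19-fold (adjusted p = 0.032), but it has a near-identical copy, Spag6l, so its counts are uncertain. The calls of Spag6, Lad1 and Col9a2 ended without any 1 of 11, 8 and 10 libraries (adjusted p up to 0.098, 0.083 and 0.11).

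The largest rises among moderately and highly expressed genes fell in several functions. Hsd11b1, which regenerates active glucocorticoid, rose 2.00-fold (22.9 ± 6.92 to 45.8 ± 15.01 CPM, adjusted p = 0.022), and the D-amino acid oxidase gene Dao, which degrades D-serine, 1.97-fold (11.3 ± 3.24 to 22.3 ± 5.78 CPM, adjusted p = 0.0080). Nuf2, a kinetochore gene, rose 1.75-fold, Sfrp5, a secreted Wnt inhibitor gene, 1.72-fold, Dmp1, a matrix phosphoprotein gene, 1.69-fold, and Smyd1, a methyltransferase gene, 1.69-fold. Prss35, Tdgf1 and Serpinb1a rose 1.68-fold, 1.66-fold and 1.56-fold. The calls of Hsd11b1, Sfrp5 and Smyd1 ended without any 1 of 4, 7 and 6 libraries (adjusted p up to 0.062, 0.067 and 0.073). Ip6k3, an inositol hexakisphosphate kinase gene, and Kctd3, a channel tetramerisation domain gene, had the next smallest p-values after Prr18. Ip6k3 rose 1.70-fold (0.812 to 1.16 CPM against 1.39 to 2.13 CPM) and Kctd3 1.25-fold (77.5 to 93.5 CPM against 95.7 to 120.2 CPM), both with adjusted p = 0.00022 and with no overlap.

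Both metallothionein genes, whose products bind zinc and copper, rose. Mt2 ranged from 36.4 to 76.0 CPM with vehicle (median 44.9) and from 58.8 to 97.6 CPM with the ASO (median 77.7), a 1.62-fold rise (adjusted p = 0.0076). Mt1, which was chosen after its values were seen, ranged from 73.4 to 134 CPM and from 111 to 173 CPM (1.52-fold, adjusted p = 0.0075). The log2 difference of Mt2 was 0.53 in batch 1 and 0.90 in batch 2. These neighbours on chromosome 8 are classical targets of the metal-responsive factor MTF-1, so their promoters are shown, 250 bases before to 50 after the RefSeq start on GRCm38.p6, plus strand, 5′ to 3′. Capitals mark matches to TGCACNC or TGCGCNC (either strand), the core of the metal response element, 3 in Mt1 (chr8:94178839-94179138) and 4 in Mt2 (chr8:94172368-94172667).
Mt1: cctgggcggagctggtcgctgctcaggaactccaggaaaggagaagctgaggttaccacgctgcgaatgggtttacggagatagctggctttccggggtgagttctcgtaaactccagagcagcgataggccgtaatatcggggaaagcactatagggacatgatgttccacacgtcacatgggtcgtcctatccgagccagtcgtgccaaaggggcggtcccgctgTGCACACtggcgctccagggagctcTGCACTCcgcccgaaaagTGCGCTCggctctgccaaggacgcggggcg
Mt2: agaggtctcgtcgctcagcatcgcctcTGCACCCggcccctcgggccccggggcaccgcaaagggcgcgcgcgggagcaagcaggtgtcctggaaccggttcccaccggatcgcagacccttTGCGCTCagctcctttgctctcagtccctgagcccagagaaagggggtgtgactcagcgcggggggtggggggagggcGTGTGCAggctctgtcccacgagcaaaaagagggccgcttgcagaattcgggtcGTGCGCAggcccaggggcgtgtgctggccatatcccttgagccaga
At least 1 such match stood in 38.58% of the 13673 promoters of tested genes, at least 3 in 3.701% and at least 4 in 0.958%. The share with a match was 41.0% among the 200 promoters of genes called higher and 30.769% among the 65 of genes called lower.

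Capicua binds the octamers TGAATGAA and TGAATGGA. Either octamer, on either strand, stood in 5 of the 200 promoters of genes called higher (2.5%) and 1 of the 65 of genes called lower (1.538%), against 2.055% of all. Kcnj10 (chr1:172340960-172341259, plus strand) and Gjc3, a connexin gene of oligodendrocytes (chr5:137963049-137963348, minus strand), are the astrocyte and myelin genes of those 5, and are shown with the octamer in capitals as it reads on the gene's strand, the reverse complement of TGAATGGA.
Kcnj10: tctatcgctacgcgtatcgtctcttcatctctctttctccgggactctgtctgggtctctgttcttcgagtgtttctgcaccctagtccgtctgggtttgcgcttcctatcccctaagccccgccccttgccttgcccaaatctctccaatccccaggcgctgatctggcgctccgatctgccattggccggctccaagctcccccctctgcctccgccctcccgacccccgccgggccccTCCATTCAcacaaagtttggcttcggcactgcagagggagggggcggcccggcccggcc
Gjc3: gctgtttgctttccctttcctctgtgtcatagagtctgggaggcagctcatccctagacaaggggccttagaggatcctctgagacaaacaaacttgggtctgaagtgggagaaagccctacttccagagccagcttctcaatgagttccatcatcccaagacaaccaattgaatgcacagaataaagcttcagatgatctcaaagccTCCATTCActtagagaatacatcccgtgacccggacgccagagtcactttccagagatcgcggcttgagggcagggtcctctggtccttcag
Gjc3, chosen after its values were seen, rose 1.23-fold (104 to 130.7 CPM with vehicle, 131.1 to 163 CPM with the ASO, adjusted p = 0.0050). Matches describe these letters in these windows and were not tested as sites.

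The labelled batches were compared because batch 1 holds the library labelled ASO 2 and batch 2 the libraries low in Hox genes. Fitted alone, batch 2 gave 222 calls (1.09%), 167 higher (0.816%) and 55 lower. Batch 1 alone gave 0 calls by edgeR, 1090 higher and 936 lower genes at an unadjusted p under 0.05, and 125 calls by DESeq2 (0.609%). Batch 1 without the library labelled ASO 2 gave 137 calls by edgeR, 122 higher and 15 lower. Of the 222 genes called in batch 2, 185 had the same direction in batch 1, and 98 (44.1%) did so at an unadjusted p under 0.05, against 9.88% of all genes at that p in either direction. No libraries are shared between the batches. Of the 137 genes called in batch 1 without the library labelled ASO 2, 136 were tested in batch 2, 131 had the same direction and 111 (81.6%) did so at an unadjusted p under 0.05, against 14.7% of all. The interaction of treatment and batch gave 0 calls by edgeR, with 1572 higher and 850 lower at an unadjusted p under 0.05.

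**Figure D4:**
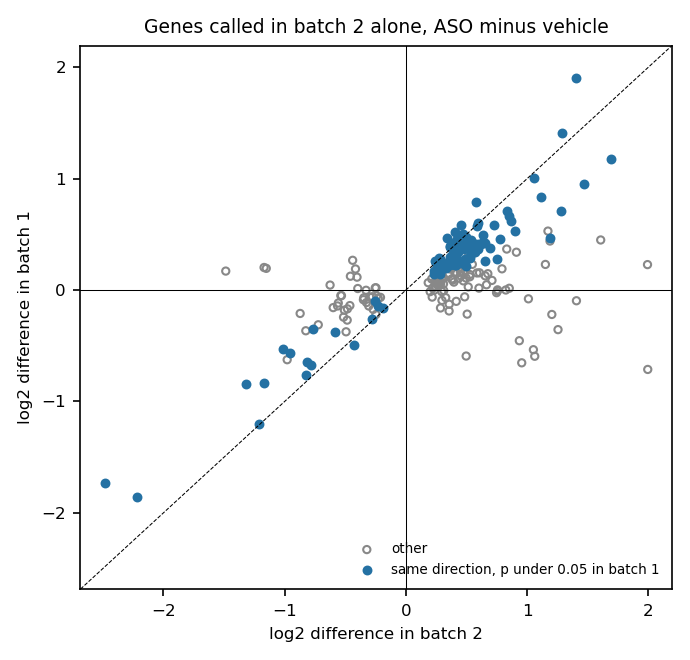
Log2 difference, ASO minus vehicle, in batch 1 (y axis) against batch 2 (x axis) for the 222 genes called in batch 2 alone, with a dashed line of equal values and filled points for the 98 genes of the same direction at an unadjusted p under 0.05 in batch 1. Of the 98 filled points, 82 are smaller in size in batch 1 than in batch 2 (medians 0.391 and 0.494), and 37 genes lie on opposite sides of 0. The genes were picked by their values in batch 2, which favours larger sizes there. The sizes therefore do not show a weaker difference in batch 1.

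The library labelled ASO 2 had the smallest shift from the vehicle mean of its batch, in the called direction, for 243 of the 346 called genes. A shift against the called direction counted as smaller than none. The other ASO libraries had the smallest shift for 4 to 48 genes each. The median shift in the called direction was 0.0814 on the log2 scale in the library labelled ASO 2 and 0.317 to 0.412 in the other 6. These shifts were read over genes that all 7 libraries helped to call.

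**Figure D5:**
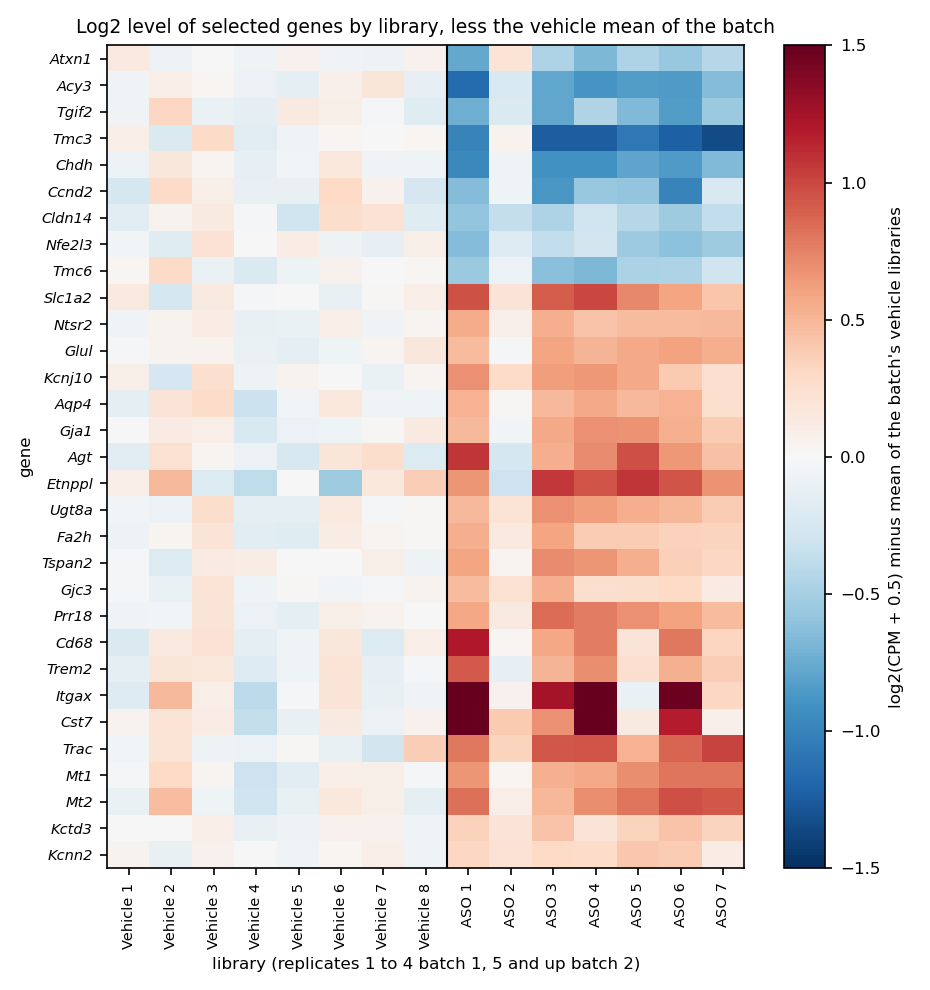
Log2(CPM + 0.5) less the mean of the vehicle libraries of the same batch (colour, with values beyond -1.5 and 1.5 drawn at those limits) for 31 genes (y axis) in each vehicle and ASO library (x axis). The column of the library labelled ASO 2 is pale, with Slc1a2 at 789 CPM against at least 1181 CPM in the other ASO libraries.

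Pons, the region above the medulla, had 4 ASO and 4 vehicle libraries at 28 weeks. There edgeR made 19 calls among 20458 genes (0.0929%), 17 of them higher (0.0831%). The interaction of treatment and tissue gave 0 calls among 21718 genes by edgeR, with 337 higher and 547 lower at an unadjusted p under 0.05, so no gene was shown to respond differently in medulla. All 8 ASO and vehicle libraries of pons share their column number with a medulla library of batch 1, so the tissues are not independent. Over medulla batch 1 and pons with that number as a block, a fit chosen after seeing the data, the interaction again gave 0 calls by edgeR, with 701 higher and 543 lower at an unadjusted p under 0.05. The median over the activated microglia list was 1.02 in pons and 0.49 in medulla, and Itgax was at 3.72 (adjusted p = 0.082) and 1.89. The median over the astrocyte markers was 0.31 in pons and 0.38 in medulla, with 0 higher and 1 lower called in pons. Trac was the member of the lymphocyte list called in pons, at 1.06 (adjusted p = 0.039) against 1.04 in medulla. In medulla at 18 weeks, with 3 ASO and 3 vehicle libraries, 0 genes were called by edgeR, with 695 higher and 210 lower at an unadjusted p under 0.05, and Itgax was at 4.12 and Slc1a2 at 0.24. Atxn1 there held 13.3, 38.35 and 20.82 CPM in ASO libraries 1 to 3 and 42.7 to 48.41 CPM with vehicle.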

How the data were processed

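RNA of medulla was sequenced as stranded libraries. The submitters' processing notes name CASAVA 1.8, HISAT2 2.0.2, featureCounts of Subread and the GRCm38 build. The values deposited by the authors are raw counts, whole numbers over 49670 gene IDs, and 0 of the 65 columns were left out. Strand and pair settings of the counting are not given in the sources used here, so overlapping and antisense genes may share reads, and 73.41% to 75.6% of counts from 1 to 20 in the 15 libraries were even. IDs without a symbol held 0.07% of the counts.

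Counts were tested with edgeR 4.0.16 (R 4.3.3, limma 3.58.1): TMM scaling, filterByExpr at a minimum count of 10, robust quasi-likelihood fits, Benjamini-Hochberg adjustment over all genes tested, calls at an adjusted p under 0.05. ASO, vehicle and wild type groups shared 1 model with labelled batch as a term. CPM are TMM-scaled, and library scores are mean log2 CPM with a prior count of 2. A library was low in Hox genes when its score lay over 3 scaled median absolute deviations under the median of the 23 libraries (under 1.57). Symbols come from the supplied table of gene names, positions from GENCODE vM21 and promoters from RefSeq on GRCm38.p6, which covered 13673 tested genes. DESeq2 1.42.0, other scalings, no filter, fewer groups, single batches and left-out libraries were tried.

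Named genes are Atxn1, Atxn1l and Cic, the 15 largest rises and 15 largest falls at an average log2 CPM of at least 1, the 10 smallest p-values, and up to 4 called members per list, or 2 of smallest p where none was called. Mt1, Gjc3, Gja1, Aqp4, Agt and the uncalled Aldh1l1, Slc1a3, Gpc5, Mbp, Mog, Mag, Cnp, Tmem119, P2ry12, C3, Etv4 and Etv5 stand outside this rule and were chosen after their values were seen, as were Slc6a4, Tph2 and Slc17a8. The text names a part of these genes, and some are not reported here. The comparison, the 39 gene lists and the rules were chosen with earlier results of these data known. The lists come from textbook knowledge and had no set test. On simulated counts of 20211 genes for this comparison, 89% of 100 genes changed 1.5-fold and 95% of 100 changed 2-fold were recovered, and 6 other genes were called. The changed genes were drawn from those at an average log2 CPM of at least 1. Counts were drawn independently around group and batch means. No library departed from its group as the library labelled ASO 2 or those low in Hox genes do, so these shares do not cover such departures.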

Additional observations from a re-analysis of the deposited data

Results flagged for a closer look

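In 164 groups of 7 or 8 libraries (81 genes and the mean of the Hox genes), 21 held a highest or lowest library whose gap to the next exceeded Dixon's 95% limit. Chance gives about 1 in 20 where groups are independent and not picked. These groups share the same libraries, and many of the genes were picked by their values in them, so the count is no test against chance. Of the 21, 16 were the library labelled ASO 2.

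Among glial genes the library labelled ASO 2 stood below the other 6 ASO libraries. It held 789.3 CPM of Slc1a2 (1181 to 1460 in the others), 1044 of Glul (1489 to 1833), 98.13 of Ntsr2 (126 to 138), 288.9 of Aqp4 (401.4 to 512.1), 166.6 of Gja1 (238.9 to 305.1), 23.87 of Etnppl (47.11 to 76.32) and 297.7 of Ttyh1 (426.5 to 515). It held 173.5 CPM of Tspan2 (253.4 to 300.8), 672 of Cnp (814.6 to 918.1), 107.8 of Prr18 (143.7 to 176.3) and 169.9 of the glycine transporter gene Slc6a9 (194.1 to 212.1). It was also lowest for Smyd1 (5.323 CPM, 9.625 to 14.43 in the others), Prss35 (2.078, 3.841 to 4.98) and Serpinb1a (27.73, 41.77 to 51.92).

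The same library was highest for Etv4, a Capicua target (23.76 CPM, 12.65 to 15.25 in the others), and for Tmc6 (16.89 CPM, 10.62 to 12.13).

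Elsewhere ASO 1 was lowest for Nfe2l3 (10.39 CPM, 12.75 to 14.49 in the other ASO libraries). Vehicle 2 was lowest of its group for Zfp488 (7.239 CPM, 9.22 to 11.44), Vehicle 5 for Ip6k3 (0.8117 CPM, 1.039 to 1.156) and Vehicle 4 for Cst7 (0.1385 CPM, 0.2744 to 0.4443). Vehicle 8 had a mean log2 CPM of Hox genes of 0.01752, against 2.767 to 4.057 in the other vehicle libraries.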

How the results depend on the processing

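The count of 346 called genes was 618 by DESeq2, 162 with only the ASO and vehicle groups fitted, 0 in batch 1, 222 in batch 2 and 138 without the libraries low in Hox genes. Leaving out 1 library gave 191 to 611. Among alternatives added after seeing the data, it was 81 in batch 2 without the libraries low in Hox genes, 137 in batch 1 without the library labelled ASO 2, 125 in batch 1 by DESeq2 and 429 without both sets of libraries. Other scaling factors gave 347, no filter 252, no batch term 243 and the Hox level as a covariate 292. The interactions with batch and with tissue kept 0 calls in every alternative run. The log2 difference of Atxn1 lost its call with 2 groups fitted (-0.4307), in batch 1 (-0.3751), without the libraries low in Hox genes (-0.3836), with the Hox covariate (-0.4147), in batch 2 without the libraries low in Hox genes (-0.4454) and in batch 1 by DESeq2 (-0.3714), and ranged from -0.5676 to -0.3751 without 1 library. The direction turned for Itgax in batch 2 without the libraries low in Hox genes (-0.2211, adjusted p = 0.97, with 1 ASO library left, assumed to vary like the other groups), and for 3 genes that were never called: Aldh1l1 in batch 1 (-0.08039, by DESeq2 -0.0758, and -0.01244 without the library labelled ASO 2), Slc1a3 in the same settings (-0.09734, -0.09317 and -0.0658) and without the libraries low in Hox genes (-0.02523), and Mag in batch 2 without those libraries (-0.03012). The causes were not tested, beyond the smaller number of libraries. Of the 62 named called genes, 62 kept the call by DESeq2, 36 with 2 groups fitted, 28 in batch 2, 28 without the libraries low in Hox genes and 0 in batch 1.

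ASO and vehicle libraries of the same replicate number correlated in their deviations from the group means with a median of -0.105 over 7 pairs (0 above 0.1). The median was -0.0465 over 21 pairs of other numbers within a batch (4 above 0.1). Of the 7 ASO libraries, 1 correlated best with the vehicle library of its own replicate number. The replicate numbers thus gave no sign of pairing, though 7 pairs cannot exclude it. With the replicate number as a block, 241 genes were called. The interaction with tissue gave 0 calls with the replicate block on the number shared by the medulla and pons columns, and 0 over the same libraries without it, both added after seeing the data.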

Other observations

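Cytosolic ribosomal protein genes gave no call in the comparison of all libraries. In batch 1 alone 14 of 30 were lower with the ASO at an unadjusted p under 0.05, against 936 of all 20511 genes. No gene was called by edgeR in that batch. The median log2 difference of the list was -0.17 there, against 0.039 in batch 2. Genes of serotonergic and noradrenergic neurons had a median of 0.10 in batch 1 and 0.86 in batch 2, where ASO 6 and ASO 7 were low in Hox genes. Choroid plexus genes had a median of -1.44 in batch 1 and 1.88 in batch 2, and their mean log2 CPM ranged from 2.01 to 8.13 over the 15 libraries. These lists held no more than 1 called gene each.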
